A study of Mus musculus with 6 samples.

Results

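The genes described here are 33 genes of myelin and of the mature oligodendrocyte, the glial cell that wraps axons of the central nervous system. They were chosen by name, as the rows of a cerebellar read count table whose GENCODE M21 symbol is on the list. All 33 were among the 48709 rows of the table and among the 16699 genes that passed the filter on low counts. Bulk RNA sequencing was done on messenger RNA of the cerebellum at an age of 40 weeks, from mice of strain C57BL/6J. The groups were 3 wild-type samples and 3 samples of SCA7 knock-in mice, whose genotype label is 140Q/5Q for a tract of 140 glutamines from one allele and of 5 from the other. SCA7, spinocerebellar ataxia type 7, arises from a lengthened glutamine tract of ataxin-7. The labels give no sex and do not say whether each sample is a separate animal, and a p-value here reflects only sample-to-sample spread, which may be technical. The comparison asks which of these genes differ between the cerebella of the knock-in and the wild-type group.

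Oligodendrocytes extend sheets of membrane that spiral around an axon and are then pressed together into compact myelin. The sheath is rich in lipids, above all cholesterol and galactolipids, and is held together by a small set of abundant proteins. At its ends it is anchored to the axon beside the node of Ranvier, where the action potential is renewed, and gap junctions couple the layers and the neighbouring glia. In the cerebellum most myelin lies in the white matter, around the axons that enter the cortex and around those of Purkinje cells.

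The 33 genes did not move together. Ugt8a, Tspan2 and Gjc3 were lower in the knock-in samples, each by 26.9% to 29.2%, and no member was called higher (edgeR, adjusted p threshold 0.05). Of all genes tested 1.28% were called lower and 0.629% higher. At an unadjusted edgeR p under 0.05, 9 members were lower and 7 higher, where the background over all genes was 8.26% and 9.81%. DESeq2 called 4 members lower and 1 higher, Apod (adjusted p 0.0462), against 3.12% and 2.47% of all genes. The limma-voom test called 3 lower and 0 higher, against 1.2% and 0.467%. The median log2 fold change was 0.03 over the members and 0.01 over all genes tested, and the median absolute log2 fold change was 0.21 and 0.14. The groups did not overlap in 9 members that were lower and in 5 that were higher, where 11.5% and 12.3% of all genes tested did so.

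**Figure D1:**
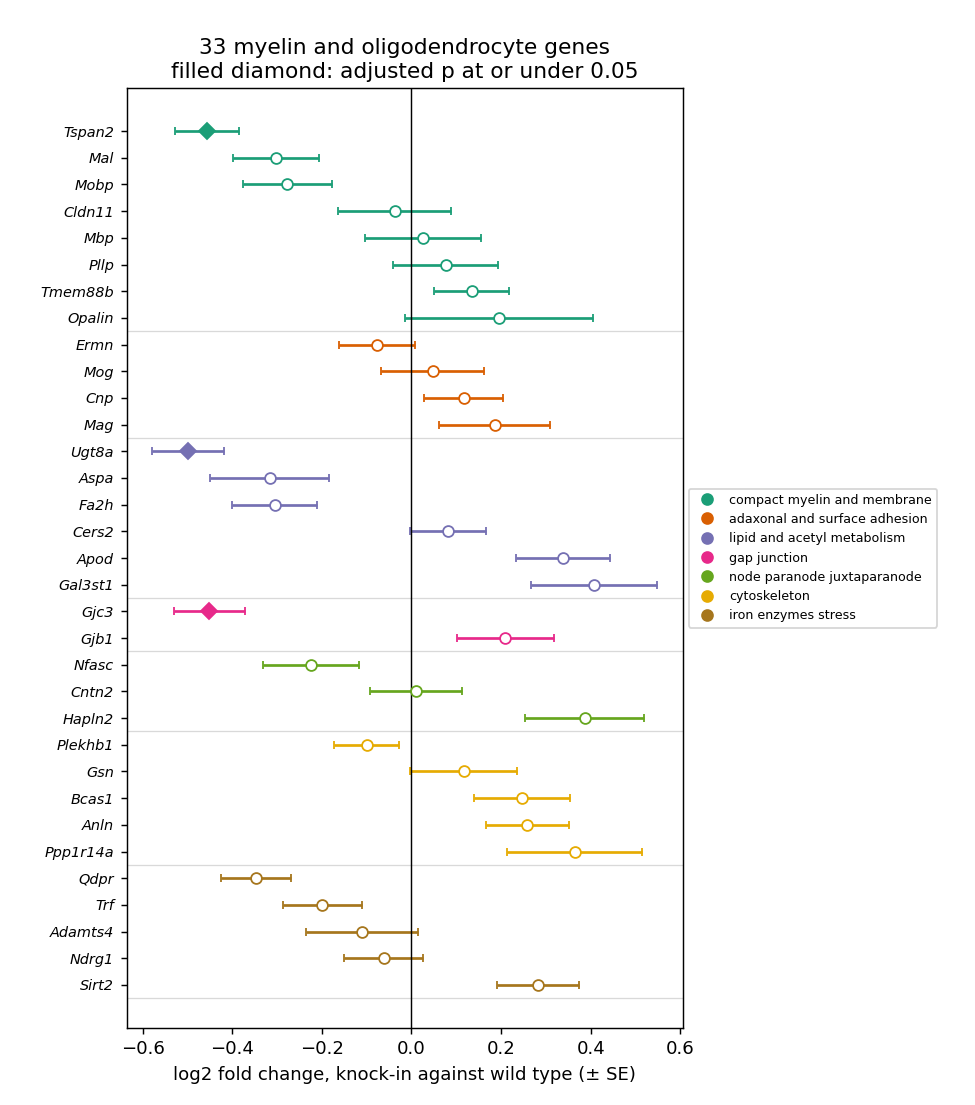
Log2 fold change of each of the 33 genes in knock-in against wild type, with its standard error (3 samples against 3), grouped by role. Filled diamonds mark Ugt8a, Tspan2 and Gjc3, the genes with an adjusted p at or under 0.05. Within most roles the genes lie on both sides of 0.

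The calls changed when single samples were left out, in fits that also had fewer samples. Without wild-type replicate 1 or 3, or without knock-in replicate 1 or 3, 0 members were called. Without wild-type replicate 2 only Ugt8a was, and without knock-in replicate 2 all 3 were. The log2 fold changes themselves lay between -0.54 and -0.47 for Ugt8a, between -0.49 and -0.44 for Tspan2 and between -0.51 and -0.40 for Gjc3 over these 6 fits. Of all genes, 0.229%, 0.369% and 0.37% were lower and 0.047%, 0.152% and 0.088% higher without wild-type replicate 1, 2 or 3. Without knock-in replicate 1, 2 or 3 the shares were 0.189%, 3% and 0.306% lower and 0.0414%, 2.04% and 0.124% higher.

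Single libraries stood apart in markers of neighbouring tissue. The mean log2 CPM (counts of a gene scaled to a common library size) of 9 tested brainstem markers, out of 20 listed, was 0.22, 1.23 and -0.03 in wild-type replicates 1 to 3 and 3.09, 1.01 and 2.53 in the knock-in replicates. Only knock-in replicate 2 lay in the wild-type range. Of these markers 2 were called higher, and 6 were higher and 1 lower at an unadjusted edgeR p under 0.05. The sum of their CPM was 94.4 to 103 in wild type and 86.5 to 149 in knock-in. Slc6a5 weighed heavily in that sum, with read counts of 2811 to 3410 in wild type and 1891 to 2370 in knock-in. None of the 20 was at 0 in every library. With that marker level added to the fit, where it partly tracks genotype, 3 of 16699 genes were called in all (0.012% lower, 0.00599% higher) and 0 members. The fitted log2 fold changes were then -0.51 for Ugt8a, -0.50 for Tspan2 and -0.45 for Gjc3. With knock-in replicates 1 and 3 both left out, an alternative added after the data were seen, the lone knock-in replicate 2 is assumed to vary as the wild-type samples do. The values were -0.52, -0.49 and -0.43, with 0 members called, where 0.0914% of all genes were lower and 0.04% higher. Without a filter on low counts 5 members were lower and 2 higher, against 2.18% and 2.49% of all genes. With the replicate number as a block 9 were lower and 3 higher, against 6.04% and 6.14%.

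**Figure D2:**
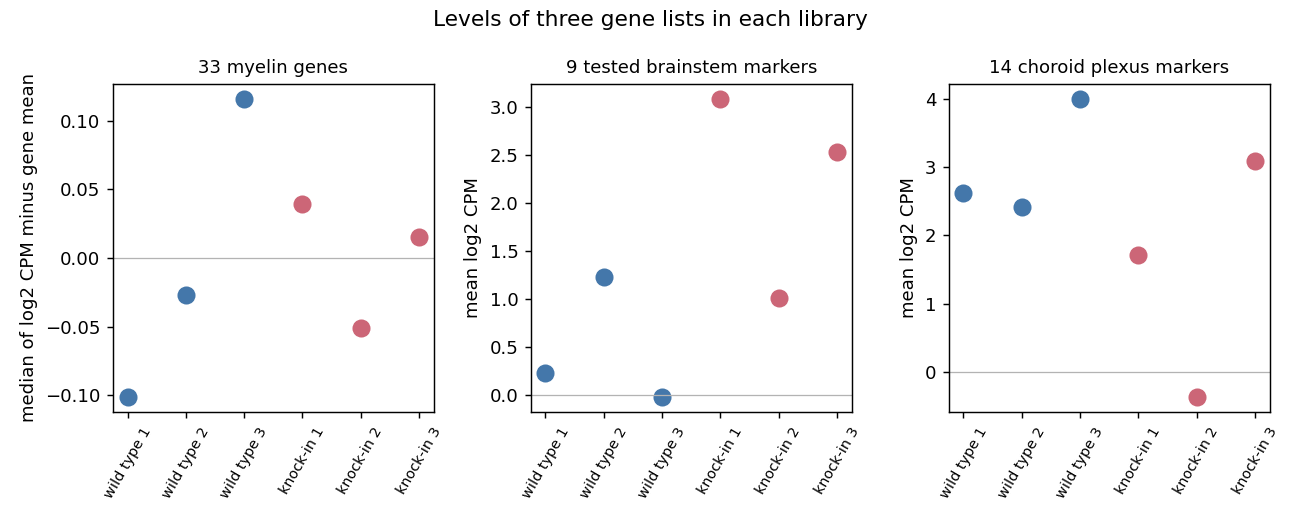
Level of the 33 genes (median of log2 CPM after subtracting each gene's mean), of 9 brainstem markers and of 14 choroid plexus markers (mean log2 CPM) in each library. The knock-in values of the 33 genes lie inside the wild-type range, while brainstem markers are high in knock-in replicates 1 and 3 and choroid plexus markers low in knock-in replicate 2.

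As a group the members varied more among the wild-type samples than among the knock-in samples. Their CPM summed to 8565, 9362 and 10980 in wild-type replicates 1 to 3 and to 9733, 9350 and 9430 in the knock-in replicates, so the knock-in totals lay inside the wild-type range. Mbp alone held 2883, 3598 and 4514 CPM of the wild-type sums. Wild-type replicate 3 was the highest library for 13 of the 33 genes, a share of 39.4% where it was the highest for 8.93% of all genes tested. Wild-type replicate 1 was the lowest for 12 members, 36.4% against 24.1% of all genes. The coefficient of variation was smaller in knock-in than in wild type for 25 members (75.8%, and 45.7% of all genes tested), with medians over the members of 5.69% and 9.89%. Wild-type replicate 3 was often the highest library in other lists too, while none of them reached the members' share with the smaller knock-in variation. Over the other lists described below, the share with the smaller knock-in variation ran from 8.33% (granule neuron) to 68.6% (further mature oligodendrocyte genes). Wild-type replicate 3 was highest for 31.4% of those oligodendrocyte genes, and over the lists for 0% (Purkinje cell) to 100% (choroid plexus). These shares describe 3 libraries per group and were not tested. In bulk samples fewer cells of a type and less RNA per cell cannot be told apart.

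**Figure D3:**
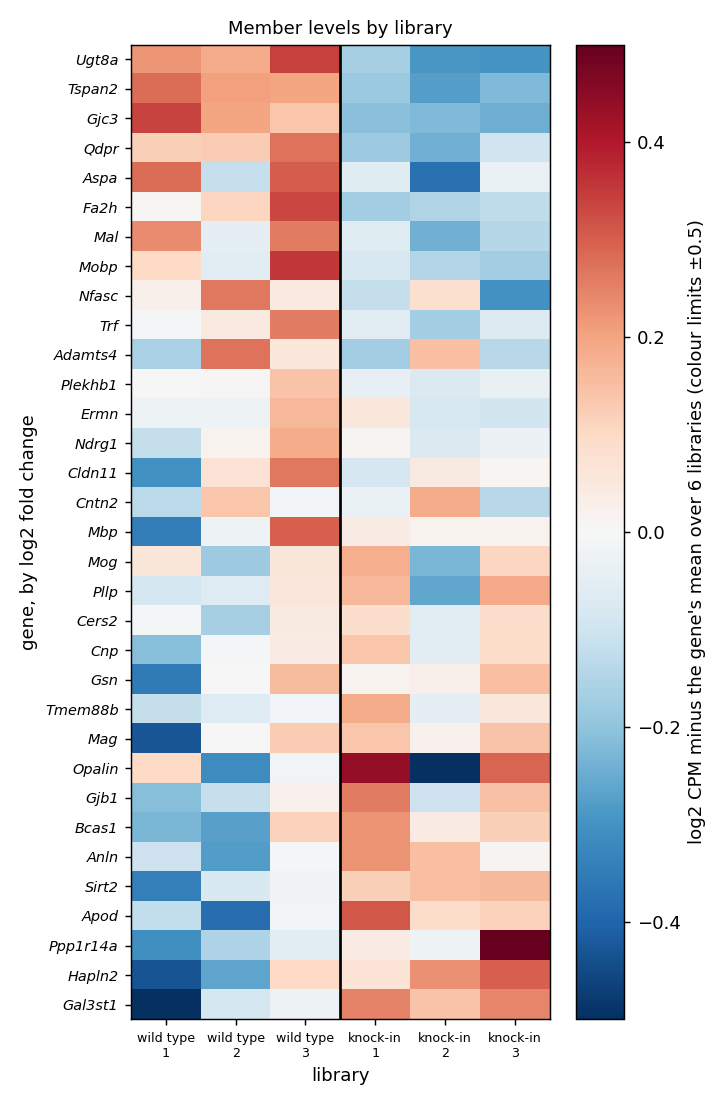
Log2 CPM of each gene in each library after subtracting the gene's mean over 6 libraries, with genes ordered by log2 fold change from the most negative at the top. Colours stop at 0.5 either way. Ugt8a, Tspan2, Gjc3 and Qdpr are above their mean in every wild-type library and below it in every knock-in library, and most genes in the middle rows follow single libraries instead.

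Levels of the genes were compared with each other per kilobase of exon, in CPM per kilobase in wild type. The length joined all annotated exons of a gene, which can exceed the length of its main transcript, and the ranking depends on that choice. Mbp was the most abundant at 433 ± 96.5 (SD, n = 3), followed by Plekhb1 at 181 ± 10.4 and Apod at 158 ± 20.2. Cnp at 147 ± 13.4, Qdpr at 147 ± 8.91 and Mobp at 144 ± 20.8 came next and did not differ beyond their spread. At the low end were Opalin at 5.38 ± 0.769, Aspa at 4.80 ± 0.741 and Gal3st1 at 4.10 ± 0.716, which also lay within each other's spread. In counts, all 33 were well covered, since the least abundant member, Gal3st1, still had 6.70 CPM in its lowest library.

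Among the structural proteins of the sheath, 1 of 8 fell. Tspan2 (ENSMUSG00000027858, chromosome 3, 102734529 to 102801513, plus strand, mm10) encodes a tetraspanin of the oligodendrocyte membrane. It measured 179, 170 and 169 CPM in wild type against 130, 122 and 127 in knock-in. Every knock-in value was below every wild-type value, and the spread within each group was small. The means were 173 ± 5.44 and 126 ± 3.86 CPM (SD, n = 3), with a log2 fold change of -0.46 ± 0.07 (SE) with an edgeR adjusted p of 0.0153.

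Mbp, which encodes myelin basic protein, the protein that binds the inner faces of the membrane together, measured 2883, 3598 and 4514 CPM in wild type against 3767, 3708 and 3714 in knock-in. The 3 knock-in values lay close together in the middle of a wild-type range of 1.57-fold. The log2 fold change was 0.03 ± 0.13 (adjusted p 0.94) and turned to -0.13 without wild-type replicate 1.

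The remaining structural genes did not pass the test. Mobp, which encodes another basic protein of compact myelin, measured 957, 859 and 1140 CPM in wild type against 843, 805 and 792 in knock-in. Mal, a proteolipid of membrane rafts, had 253, 208 and 257 CPM against 206, 182 and 194 CPM. In both genes the groups did not overlap, though the lowest wild-type value was close to the highest knock-in value, and the log2 fold changes were -0.28 ± 0.10 and -0.30 ± 0.10 (adjusted p 0.187 and 0.145). Cldn11, the tight junction claudin of myelin, Pllp, a proteolipid, Opalin and Tmem88b overlapped between the groups, with log2 fold changes between -0.04 and 0.20. Opalin varied most, from 11.7 CPM in knock-in replicate 2 to 22.5 CPM in knock-in replicate 1. These are also the knock-in libraries with the lowest and the highest brainstem marker level. They differed in choroid plexus marker level too, at -0.37 in replicate 2 and 1.71 in replicate 1 (mean log2 CPM). The log2 fold change of Opalin, 0.20 ± 0.21, was -0.32 with the brainstem marker level in the fit and -0.42 with knock-in libraries 1 and 3 left out. Opalin did not pass the adjusted threshold with the brainstem marker level in the fit. Whether brainstem tissue has a part in its values was not tested.

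The ratio of Mbp to Mobp per kilobase was 2.44, 3.39 and 3.20 in wild type against 3.61, 3.72 and 3.79 in knock-in. The groups did not overlap in this ratio although Mbp alone overlapped. The difference of 0.32 on the log2 scale had an exact two-sided permutation p of 0.1, the smallest that 3 samples against 3 allow. This ratio and 2 further ratios below were chosen after the values were seen, so with 3 comparisons no adjusted value could pass either.

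None of the 4 genes for adhesion and the inner and outer surface of the sheath was called. Cnp, an enzyme that keeps cytoplasmic channels through myelin open, measured 481, 554 and 573 CPM in wild type against 612, 537 and 592 in knock-in (0.12 ± 0.09 on the log2 scale, adjusted p 0.529). Mag, the adhesion protein of the layer next to the axon, had 220 ± 41.8 and 250 ± 11.7 CPM. Mog, found on the outermost surface, had 109 ± 10.2 and 113 ± 16.4 CPM, and the actin-binding Ermn had 120 ± 9.37 and 114 ± 6.46 CPM. In all 4 the groups overlapped. At an unadjusted p under 0.05 none of them was higher or lower either.

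Of 6 genes of lipid and acetyl metabolism, Ugt8a fell. It encodes the galactosyltransferase that turns ceramide into galactosylceramide, the main galactolipid of myelin (ENSMUSG00000032854, chromosome 3, 125865271 to 125938619, minus strand). Ugt8a measured 103, 100 and 112 CPM in wild type against 78.8, 72.2 and 72.0 in knock-in. No knock-in sample reached the lowest wild-type sample. The means were 105 ± 5.96 and 74.3 ± 3.84 CPM, a log2 fold change of -0.50 ± 0.08 (edgeR adjusted p 0.0178).

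Gal3st1 encodes the sulfotransferase of the next step, which makes sulfatide from galactosylceramide. It measured 6.70, 9.02 and 9.40 CPM in wild type against 11.4, 10.6 and 11.3 in knock-in. The knock-in values were all above the wild-type values, with wild-type replicate 1 well below the rest. The log2 fold change was 0.41 ± 0.14 (adjusted p 0.173), the largest positive value among the members, and it was 0.26 without wild-type replicate 1 and 0.18 with offsets for GC content and length. The ratio of Ugt8a to Gal3st1 per kilobase does not depend on the scaling between libraries. It was 6.91, 5.01 and 5.35 in wild type against 3.12, 3.07 and 2.86 in knock-in. Because each gene alone was apart, in opposite directions, the ratio had to be apart as well, and its p-value was fixed in advance. The difference was -0.92 on the log2 scale, with an exact two-sided permutation p of 0.1, the smallest possible. The ratio was not adjusted for GC content, which was 39.9% for Ugt8a and 59.9% for Gal3st1.

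The sequences just before the annotated starts of these enzyme genes, and of Gjc3 described further on, are printed to show how different the promoters of the called genes are in base composition. Each is the 250 bases before the first RefSeq start on GRCm38.p6 (mm10), read 5′ to 3′ on the gene's strand, with CG dinucleotides in capitals. Windows that overlap an annotated exon of the gene, such as that of Tspan2, are not printed.
Ugt8a, chr3:125938653-125938902, minus strand: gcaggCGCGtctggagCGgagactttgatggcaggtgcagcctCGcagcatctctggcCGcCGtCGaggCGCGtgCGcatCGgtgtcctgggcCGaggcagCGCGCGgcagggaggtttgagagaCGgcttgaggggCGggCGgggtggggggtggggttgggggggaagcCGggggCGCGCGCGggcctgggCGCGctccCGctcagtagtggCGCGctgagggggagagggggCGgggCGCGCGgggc
Gal3st1, chr11:3983386-3983635, plus strand: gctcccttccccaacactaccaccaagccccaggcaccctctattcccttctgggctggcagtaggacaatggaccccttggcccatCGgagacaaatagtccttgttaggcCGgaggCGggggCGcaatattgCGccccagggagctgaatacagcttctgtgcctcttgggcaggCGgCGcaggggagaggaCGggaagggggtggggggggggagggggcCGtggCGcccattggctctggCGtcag
Gjc3, chr5:137963099-137963348, minus strand: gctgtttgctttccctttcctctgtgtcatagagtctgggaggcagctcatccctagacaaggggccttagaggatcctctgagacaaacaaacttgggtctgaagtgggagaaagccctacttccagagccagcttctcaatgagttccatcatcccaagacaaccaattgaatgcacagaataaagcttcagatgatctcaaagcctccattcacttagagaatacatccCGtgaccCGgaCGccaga
The Ugt8a window is 76.8% G and C and holds 32 CG dinucleotides, a number reached by 4.36% of the 27025 genes with a promoter in the table. Gal3st1 has 11 in a window of 65.6% G and C, and Gjc3 has 3 in a window of 48.8%. Of all genes 38.1% had as few CG as Gjc3 or fewer, so the called genes Ugt8a and Gjc3 differ in this. The median was 7 over the 27 members with a promoter in the table and 6 over all genes.

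The same 27 windows were searched on both strands for letters that match sites of oligodendrocyte transcription factors. The SOX letters ACAAAG or ACAATG were found in 11 (40.7%, and 25.4% of all 27025 windows). The MYRF letters CTGGCAC or CTGGTAC were found in 4, in Cnp, Mag, Mog and Hapln2 (14.8%, and 5.88% of all windows), and the E-box CAGCTG in 3 (11.1%, and 12.7%). None of the 3 motifs lies in the windows of Ugt8a, Gjc3 or Tspan2, and Gal3st1 holds ACAATG with its first base 184 bases before the start. A match is a description of letters and not a binding site, and no match says only that the letters are not in this window.

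The other lipid genes did not pass the test. Fa2h, which adds the hydroxyl group to fatty acids of myelin galactolipids, measured 43.7, 46.9 and 54.8 CPM in wild type against 38.7, 39.2 and 39.8 in knock-in, without overlap (log2 fold change -0.31 ± 0.10, adjusted p 0.138). Aspa, which releases acetate from N-acetylaspartate, had 30.9, 23.5 and 31.3 CPM against 24.4, 19.6 and 24.9 CPM, with overlap (-0.32 ± 0.13, adjusted p 0.246). Cers2, the ceramide synthase for very long acyl chains, had 79.3 ± 5.89 and 84.0 ± 4.60 CPM. Apod, a lipid-binding secreted lipocalin, measured 420, 351 and 453 CPM in wild type against 566, 487 and 494 in knock-in. The groups were apart for Apod, at a log2 fold change of 0.34 ± 0.10 (adjusted p 0.133). It was the only member that DESeq2 called higher. Apod is also made by fibroblasts of the meninges, a list of 11 markers for which no gene was called and whose summed level was 160 to 226 CPM in wild type and 137 to 192 CPM in knock-in.

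**Figure D4:**
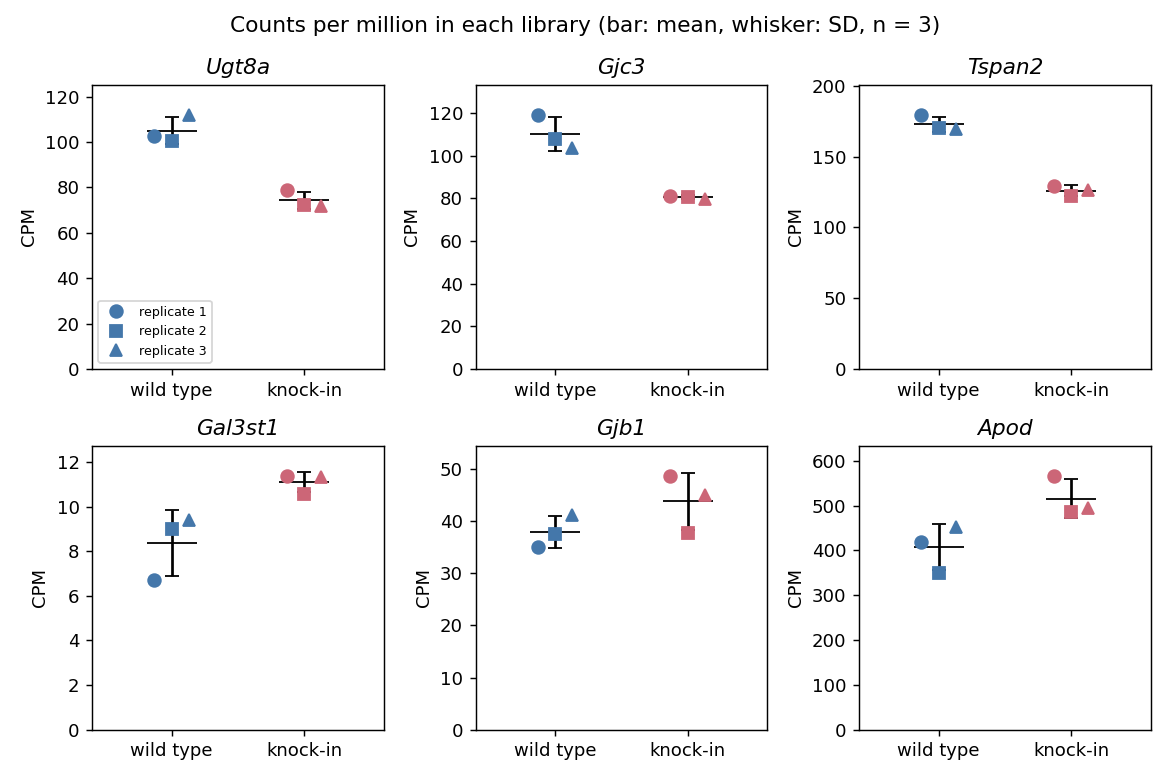
CPM of 6 genes in each library, with the mean (bar) and SD (whisker) of 3 samples and the axis starting at 0. The upper row shows the called genes, whose knock-in values all lie below the wild-type values. In the lower row Gal3st1 and Apod lie apart in the other direction without passing the test, and Gjb1 overlaps.

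Of the 2 connexins Gjc3 fell and Gjb1 was not called. Gjc3 (ENSMUSG00000056966, chromosome 5, 137953461 to 137963098, minus strand), a connexin of oligodendrocytes and Schwann cells, measured 119, 108 and 103 CPM in wild type against 81.2, 80.7 and 79.4 in knock-in. The knock-in values were almost equal and all below wild type, with means of 110 ± 7.97 and 80.5 ± 0.926 CPM, a log2 fold change of -0.45 ± 0.08 and an edgeR adjusted p of 0.0226. Gjb1, the connexin of gap junctions between myelin layers, measured 34.95, 37.5 and 41.1 CPM in wild type against 48.6, 37.8 and 44.9 in knock-in, with overlap (0.21 ± 0.11, adjusted p 0.334). The ratio of Gjc3 to Gjb1 per kilobase was 1.33, 1.13 and 0.986 for the wild-type samples against 0.655, 0.837 and 0.693 for the knock-in samples. These values did not overlap, at a difference of -0.65 on the log2 scale (exact two-sided permutation p 0.1, the smallest possible). This ratio too was not adjusted for GC content, which was 44.4% for Gjc3 and 56.5% for Gjb1.

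Of the 3 genes of the node region none passed the test. Nfasc encodes forms of neurofascin that glia place at the paranode and neurons at the node, and the counts do not separate them. It measured 289, 341 and 294 CPM in wild type against 261, 300 and 230 in knock-in (-0.22 ± 0.11 on the log2 scale, adjusted p 0.304). Cntn2, an adhesion protein of the juxtaparanode that neurons also make, had 303, 367 and 330 CPM against 325, 378 and 303 CPM, with no shift between the groups (0.01 ± 0.10). Hapln2, a link protein of the matrix around the node, measured 18.5, 20.7 and 26.6 CPM in wild type against 26.1, 29.1 and 30.6 in knock-in. Only wild-type replicate 3 reached into the knock-in range, and the log2 fold change of 0.39 ± 0.13 (adjusted p 0.172) was 0.17 with offsets for GC content and length.

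Of 5 cytoskeletal and signalling genes none was called, and 3 were higher at an unadjusted p under 0.05, where 9.81% of all genes were. Plekhb1, a protein with a pleckstrin homology domain, measured 649, 652 and 717 CPM in wild type against 632, 618 and 633 in knock-in, a small shift without overlap (-0.10 ± 0.07, adjusted p 0.504). Ppp1r14a, an inhibitor of myosin phosphatase, had 9.30, 10.3 and 11.1 CPM against 11.9, 11.3 and 16.3 CPM. Its knock-in values were all higher, with replicate 3 far above the others, at 0.36 ± 0.15 (adjusted p 0.239) and 0.11 with GC and length offsets. Anln, the septin-binding protein anillin, had 92.3 ± 8.56 and 110 ± 8.09 CPM, also without overlap, and a log2 fold change of 0.26 that rose to 0.34 with the offsets (adjusted p 0.035). Bcas1, a marker of oligodendrocytes that are forming myelin, had 202 ± 30.8 and 239 ± 15.2 CPM, and the actin-severing protein gene Gsn 72.2 ± 12.6 and 78.2 ± 4.09 CPM, both with overlap.

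Among 5 genes of iron supply, enzymes and stress responses, Qdpr came closest to the threshold. It encodes the reductase that regenerates tetrahydrobiopterin and is abundant in oligodendrocytes. Qdpr measured 253, 255 and 281 CPM in wild type against 205, 197 and 217 in knock-in. The groups were well apart, with a log2 fold change of -0.35 ± 0.08 and an edgeR adjusted p of 0.0546. DESeq2 gave an adjusted p of 0.00238 for it. Trf, which encodes the iron carrier transferrin, had 116 ± 11.5 and 101.1 ± 4.41 CPM (-0.20 ± 0.09), without overlap.

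Trf is also made by the choroid plexus. The 14 markers of that epithelium had 0 called, 4 lower at an unadjusted edgeR p under 0.05 and a median log2 fold change of -0.99, and their summed level was 524 to 1959 CPM in wild type and 32.1 to 1343 CPM in knock-in. With the choroid plexus marker level as a covariate 5 members were called lower and 1 higher, against 5.96% and 2.89% of all genes. Sirt2, an NAD-dependent deacetylase of myelin, had 159 ± 18.4 and 193 ± 2.99 CPM, without overlap and with every knock-in value higher (0.28 ± 0.09, adjusted p 0.151). Ndrg1, a stress-responsive gene, and Adamts4, a protease of the extracellular matrix made by oligodendrocytes, overlapped between the groups at log2 fold changes of -0.06 and -0.11.

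The fold changes moved with GC content. Across the 33 genes, which are not independent replicates and share the libraries, the Spearman rho of log2 fold change with transcript GC content was 0.45, and it was 0.34 across 16656 genes tested with a known GC content. With exon length rho was -0.32 and -0.22. The 3 genes called lower had GC contents of 39.9% (Ugt8a), 43.5% (Tspan2) and 44.4% (Gjc3), where the median member had 52.3%. Gal3st1, Hapln2 and Ppp1r14a, the members with the largest positive values, had 59.9%, 59.5% and 59.8%. Relative to the mean over libraries, rho with GC content over the members was -0.70, 0.06 and -0.34 in wild-type replicates 1 to 3 and 0.15, 0.53 and 0.43 in the knock-in replicates. Over all genes the values farthest from 0 were -0.56 in wild-type replicate 1, 0.32 in knock-in replicate 3 and 0.23 in knock-in replicate 2.

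With offsets for GC content and length fitted in each library, rho of log2 fold change with GC content was 0.27 over the members and 0.03 over all genes. In that fit 6 members were called lower and 3 higher, where 3.06% and 1.32% of all genes were. The log2 fold changes were -0.48 for Ugt8a, -0.42 for Tspan2 and -0.41 for Gjc3, and these genes remained called (adjusted p 0.0041, 0.00183 and 0.00295). Qdpr, Fa2h and Mal joined them at -0.38, -0.39 and -0.29. The higher ones were Apod at 0.35, Anln at 0.34 and Sirt2 at 0.24.

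**Figure D5:**
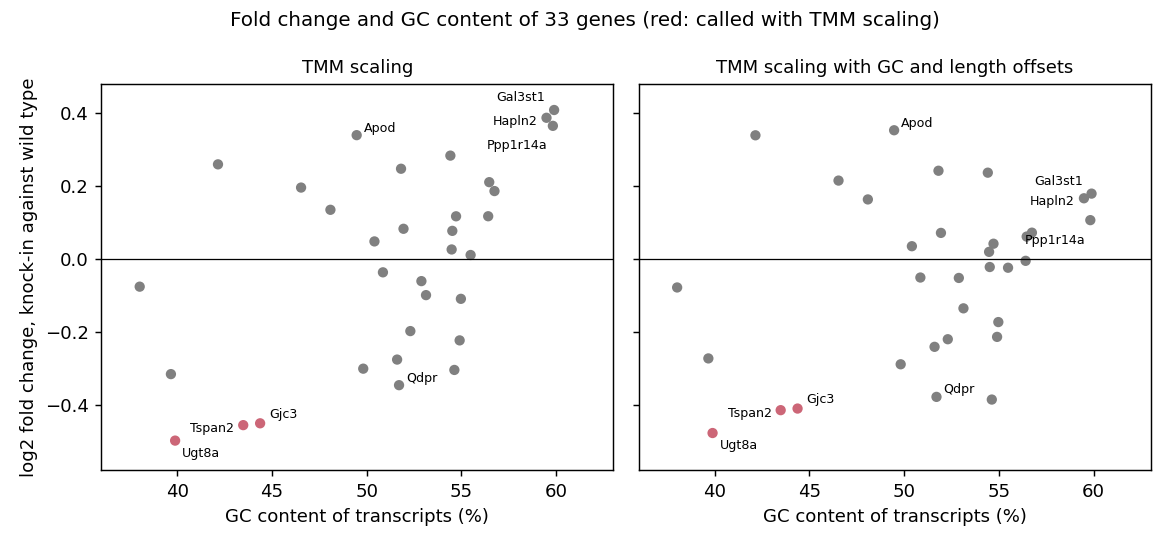
Log2 fold change of each of the 33 genes against the GC content of its transcripts, with TMM scaling (left) and with added offsets for GC content and length (right). Red points are Ugt8a, Tspan2 and Gjc3, which stay at -0.41 or lower on the right. Gal3st1, Hapln2 and Ppp1r14a near 60% move from between 0.36 and 0.41 to between 0.11 and 0.18.

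Other genes of the sheath and of the lineage were taken from lists of textbook genes. Of 35 further genes of mature oligodendrocytes 2 were called lower and none higher, with a median of -0.01. Of these 35, 5 were lower and 4 higher at an unadjusted p under 0.05. Car2, the carbonic anhydrase of oligodendrocytes, measured 280, 278 and 328 CPM in wild type against 204, 202 and 215 in knock-in, a log2 fold change of -0.51 ± 0.08 (edgeR adjusted p 0.0183).

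Of 23 genes of lineage regulators and precursors 3 were called higher and none lower, with a median of 0.13. At an unadjusted edgeR p under 0.05, 2 were lower and 7 higher. Wild-type replicate 1 was the lowest library for 15 of the 23 (65.2%, and 24.1% of all genes tested). The median was 0.04 without that replicate, 0.24 without wild-type replicate 3 and 0.09 with GC and length offsets. Olig1, a basic helix-loop-helix factor of the lineage, measured 39.1, 59.1 and 60.7 CPM in wild type against 86.5, 82.5 and 93.9 in knock-in (0.73 ± 0.15, adjusted p 0.0386). With GC and length offsets its log2 fold change was 0.47 (adjusted p 0.0099). Sox8, a SOX factor of the lineage, had 29.2 ± 3.67 and 40.7 ± 1.16 CPM, and the zinc finger factor Zfp488 had 2.89 ± 0.344 and 5.07 ± 0.688 CPM (adjusted p 0.0436 and 0.0418). Without any 1 of the samples other than knock-in replicate 2, none of these 3 regulators was called, although their log2 fold changes were at least 0.37.

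Galactolipid and other membrane lipid genes outside the 33 (20 genes) and cholesterol synthesis genes (22 genes) had 0 called. Their medians were -0.07 and -0.12, and 4 and 5 were lower and 1 and 1 higher at an unadjusted p under 0.05. Psap and Hmgcs1 had the highest mean CPM of each list, which is not scaled by gene length, at 2491 ± 207 and 2429 ± 70.8 CPM and at 146 ± 4.30 and 122 ± 13.8 CPM. Axonal, matrix and other partners of the node and paranode (21 genes) had 0 called, with Sptbn1 at 635 ± 45.9 and 583 ± 65.9 CPM. At an unadjusted p under 0.05, 6 of them were lower and 1 higher, and their median was -0.16. Knock-in replicate 3 was the lowest library for 17 of these 21 genes (81.0%, and 22.7% of all genes tested). The median was -0.06 without that replicate, -0.25 without knock-in replicate 2 and -0.07 with GC and length offsets.

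Of 9 genes that couple oligodendrocytes with astrocytes 3 were called lower, and all 3 are astrocyte genes in the main. At an unadjusted edgeR p under 0.05, 4 were lower and 1 higher, and the median log2 fold change was -0.15. Gja1, a connexin, had 303 ± 5.92 and 216 ± 6.82 CPM, Aqp4, the water channel, 535 ± 28.3 and 369 ± 29.8 CPM and Kcnj10, a potassium channel, 401 ± 12.1 and 284 ± 28.3 CPM.

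Marker lists of other cells, which share the same libraries, moved as follows. Purkinje cell markers had 7 of 15 called lower, of which Rgs8, Gng13 and Car8 had the smallest adjusted p. Granule neuron markers had 2 of 12 called lower (Cbln3 and Chn2) and astrocyte markers 2 of 12 (Aldoc and Slc1a2). At an unadjusted edgeR p under 0.05, 13 Purkinje cell, 4 granule neuron and 7 astrocyte markers were lower and 0 of each higher. The median log2 fold changes of these lists were -0.38, -0.16 and -0.30. Of 10 neuronal and axonal genes, mostly neurofilament and other cytoskeletal ones, Uchl1 was the 1 called, higher. It encodes a ubiquitin hydrolase of neurons, and its log2 fold change of 0.65 was 0.37 with the brainstem marker level in the fit. Microglia, endothelial and pericyte, and meningeal markers had 0 called of 11, 12 and 11, with 4, 3 and 2 at an unadjusted p under 0.05. Of 10 markers of Schwann cells, which make peripheral myelin and could come from attached nerve roots, 6 passed the filter and 0 were called, with 1 lower and 2 higher at an unadjusted p under 0.05. Pmp2 and Foxd3 were at 0 in every library, and the level summed over the list was 113 to 122 CPM in wild type and 96.0 to 109 CPM in knock-in. The part of any of these cells in the values of the 33 genes was not tested.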

How the data were processed

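The 6 cerebellum libraries were made with the TruSeq Stranded mRNA kit, per the labels. The authors deposited unnormalized read counts for each Ensembl gene. The submitters' processing notes name HTSeq 0.6.1, the build mm10 and bcl2fastq 2.17.1.14, TopHat2 2.0.14 and Bowtie2 2.1.0. No source used here gives the annotation release or strand setting, so members that overlap a gene on the other strand (such as Cnp with Dnajc7) are uncertain. Totals were 34630391 to 49127673 counts per library, and at least 99.9% of each fell on genes tested. GENCODE M21 matched 48349 of 48709 identifiers. The common biological coefficient of variation was 0.115.

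Tests were run in R 4.3.3 with edgeR 4.0.16: filterByExpr (minimum count 10, total 15), TMM scaling, a quasi-likelihood test of genotype with no covariate, and Benjamini-Hochberg adjustment over all 16699 genes, called at 0.05. The SE is the absolute log2 fold change divided by the root of F. Means carry the SD over 3 samples. Promoters came from RefSeq. Within a group, libraries differed by 14.0 to 30.2 in chi-square per degree of freedom, above sampling noise. In simulated counts for this comparison (16479 genes run) 67% of 100 genes changed 1.5-fold and 86% of 100 changed 2-fold were called. Of these calls 6.71% were false. The counts were drawn for each gene on its own, without the GC trend or the marker differences between libraries, so the shares may not hold for the measured counts. The called members, at 0.708 to 0.731 of the wild-type level, changed less than 1.5-fold, and no such change was simulated. Alternatives covered scaling, filter, test (DESeq2 1.42.0, limma 3.58.1), threshold, replicate block, marker covariates, GC and length offsets and samples left out.

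Members and gene lists were chosen with earlier results of these data known. Values in every sample are given for called members, the most abundant member per kilobase of each role and the 3 largest uncalled changes each way. Of other lists up to 3 called genes, or else the gene of highest mean CPM, are named, and 1 called gene is not reported here. Other genes named were chosen after their values were seen.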

Additional observations from a re-analysis of the deposited data

How the results depend on the processing

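The log2 fold changes of Ugt8a, Tspan2 and Gjc3 stayed negative in all 18 alternatives, between -0.54 and -0.43, -0.50 and -0.38, and -0.51 and -0.38. Members called lower and higher were 5 and 2 without a filter on low counts, 9 and 3 with the replicate block, 5 and 1 with the choroid plexus covariate, 6 and 3 with GC content and length offsets, 4 and 1 with DESeq2, and 0 and 0 with the brainstem covariate and without knock-in libraries 1 and 3. Leaving out each sample gave 0 to 3 called lower. All genes called, 318, became 513 with library size scaling, 1303 without a filter, 934 with DESeq2, 948 with the likelihood ratio test, 2034 with the replicate block, 3 with the brainstem and 1479 with the choroid plexus covariate, 729 with the offsets, 23 without knock-in libraries 1 and 3, 721 at a threshold of 0.1, and 39 to 858 with each sample left out. With library size scaling 190 were lower and 323 higher, in place of 213 and 105. The median of the members was 0.13 with the choroid plexus covariate and -0.0651 to 0.0803 with each sample left out. The cause of these differences was not tested, and the fits with samples left out also had fewer samples.

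Same-numbered samples correlated in their deviations from the group means at 0.0952, 0.292 and 0.479. Each correlated best with its own number, a hint from the data alone, but the first value is under 0.1, so the numbers were not taken to pair the samples.

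A sign changed in 10 members with a log2 fold change of at most 0.20 either way, none of them called in any such setting. With the brainstem covariate Pllp was -0.19, Cldn11 0.0388, Opalin -0.32, Mog -0.12 and Cnp -0.0129. Without knock-in libraries 1 and 3 Pllp was -0.21, Cldn11 0.0331, Opalin -0.42, Mog -0.19 and Adamts4 0.10. With the offsets Pllp was -0.0228, Cntn2 -0.0248 and Gsn -0.00585, with the choroid plexus covariate Cldn11 0.0164, Cntn2 -0.12 and Ndrg1 0.00387, and with library size scaling Cldn11 0.0371 and Ndrg1 0.013. With each sample left out the ranges were -0.13 to 0.19 for Mbp, -0.19 to 0.0803 for Cldn11, -0.0325 to 0.16 for Mog, -0.0899 to 0.0855 for Cntn2, -0.025 to 0.22 for Gsn, -0.14 to 0.00637 for Ndrg1 and -0.225 to 0.00452 for Adamts4.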
